A study of Mus musculus with 2 samples.

Results

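Mir335, Mir483, Mir675, Mir296 and Mir298 are miRNA genes of imprinted loci, in which one parental allele is expressed over the other, and all lie outside the large Dlk1-Dio3 miRNA domain. They were chosen by their locus. Mir335 lies in Mest, Mir483 in Igf2, Mir675 in H19, and Mir296 and Mir298 lie beside each other in the Gnas and Nespas locus. They are 5 of the 1973 miRNA genes counted. The miRNAs were sequenced from whole midbrain of embryonic day 16.5 mice of strain B6NCrl, listed as healthy, with no treatment or altered allele named in the labels. There was 1 group with 2 biological replicates, each a pool of male and female embryos, of which replicate 2 held 37 embryos. The labels list both pools under the same donor entry. With 1 group there was no contrast of conditions, and the comparisons are between genes and between libraries.

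A miRNA gene is transcribed as a long RNA that folds into a hairpin. The hairpin is cut to a short duplex, and either arm (5p from the left side of the hairpin, 3p from the right) can be loaded into an Argonaute protein, where bases 2 to 8, the seed, pair with target mRNAs. Imprinted genes act on growth of the fetus and placenta: Igf2 encodes a growth factor expressed from the paternal allele, H19 is a maternally expressed long non-coding RNA of the same domain, Mest is paternally expressed, and Nespas is a paternally expressed RNA antisense to Gnas, which encodes a G protein alpha subunit. The counts pool both arms and both alleles, so neither an arm nor a parent of origin can be told from them.

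The mature miRNAs of the 5 genes are shown because their seeds decide what each can pair with, and because they show that the genes are not copies of one another. Sequences are from RefSeq (GRCm38.p6), 5′ to 3′, with the seed in capitals.
miR-335-5p: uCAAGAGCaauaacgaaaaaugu
miR-335-3p: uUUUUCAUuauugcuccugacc
miR-296-5p: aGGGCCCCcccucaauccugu
miR-296-3p: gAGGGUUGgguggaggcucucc
miR-298-5p: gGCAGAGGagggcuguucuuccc
miR-298-3p: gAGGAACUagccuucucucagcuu
miR-483-5p: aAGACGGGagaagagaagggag
miR-483-3p: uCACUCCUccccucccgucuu
miR-675-5p: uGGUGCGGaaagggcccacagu
miR-675-3p: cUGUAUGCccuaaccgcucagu
These 10 mature sequences hold 10 different seeds, and 0 of them are shared with another gene among the 1738 mature sequences of the RefSeq table, in which 32.0% share their seed with another gene. The Mir296 and Mir298 seeds differ although the genes are neighbours. The miR-335 arms are poor in G and C, at 30.4% for 5p and 36.4% for 3p, while the other arms hold between 50% (miR-298-3p) and 68.2% (miR-296-3p). All 7 bases of the miR-296-5p seed are G or C, against 1 of 7 in the miR-335-3p seed.

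The hairpins are shown as the units to which reads were counted, with the mature arms in capitals.
Mir335 hairpin: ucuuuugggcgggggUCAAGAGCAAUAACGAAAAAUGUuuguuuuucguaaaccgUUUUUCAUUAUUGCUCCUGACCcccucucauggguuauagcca
Mir296 hairpin: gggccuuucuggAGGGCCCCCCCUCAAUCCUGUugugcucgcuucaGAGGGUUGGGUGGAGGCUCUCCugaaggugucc
Mir298 hairpin: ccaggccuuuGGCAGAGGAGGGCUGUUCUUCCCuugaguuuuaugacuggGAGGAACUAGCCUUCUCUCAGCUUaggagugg
Mir483 hairpin: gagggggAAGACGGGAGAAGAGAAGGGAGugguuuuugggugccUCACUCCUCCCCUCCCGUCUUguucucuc
Mir675 hairpin: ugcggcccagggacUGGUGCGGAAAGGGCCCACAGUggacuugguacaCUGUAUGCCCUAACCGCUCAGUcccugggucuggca
The longest run of bases that any of them shares with another RefSeq hairpin, on either strand, is 11 to 13 bases, which is shorter than a mature miRNA. Outside their own genes, the mature sequences matched GENCODE M21 transcripts only in H19, which contains both miR-675 arms. By predicted folding energy per base, all 5 hairpins were more stable than the median of 1005 mouse hairpins (-0.41 kcal/mol per base). Mir675 was at -0.67, more stable than 97.7% of them, and Mir335 at -0.45 was more stable than 70.0%.

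The 5 hairpins sit differently in their loci on mm10, as annotated in GENCODE M21. Mir335 (ENSMUSG00000065501.1, chr6:30741299-30741396, plus strand) lies in 1 intron of 1316 bases in all 7 Mest transcripts that span it. Mir483 (ENSMUSG00000070140.1, chr7:142654924-142654996, minus strand) lies in an intron of 1205 bases in all 7 spanning Igf2 transcripts. Mir675 (ENSMUSG00000076275.1, chr7:142577064-142577147, minus strand) is exonic in 3 of 4 spanning H19 transcripts, in exon 1 of 2 of them, and is intronic in the other. Mir296 (ENSMUSG00000065521.1, chr2:174267047-174267125) and Mir298 (ENSMUSG00000065410.1, chr2:174267504-174267585) are both on the minus strand, separated by 378 bases, with Mir298 first in the direction of transcription. They lie outside the annotated Nespas gene, 14111 and 13651 bases beyond its end on the same strand. Mir483 and Mir675 are 77776 bases apart on the same strand.

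**Figure D1:**
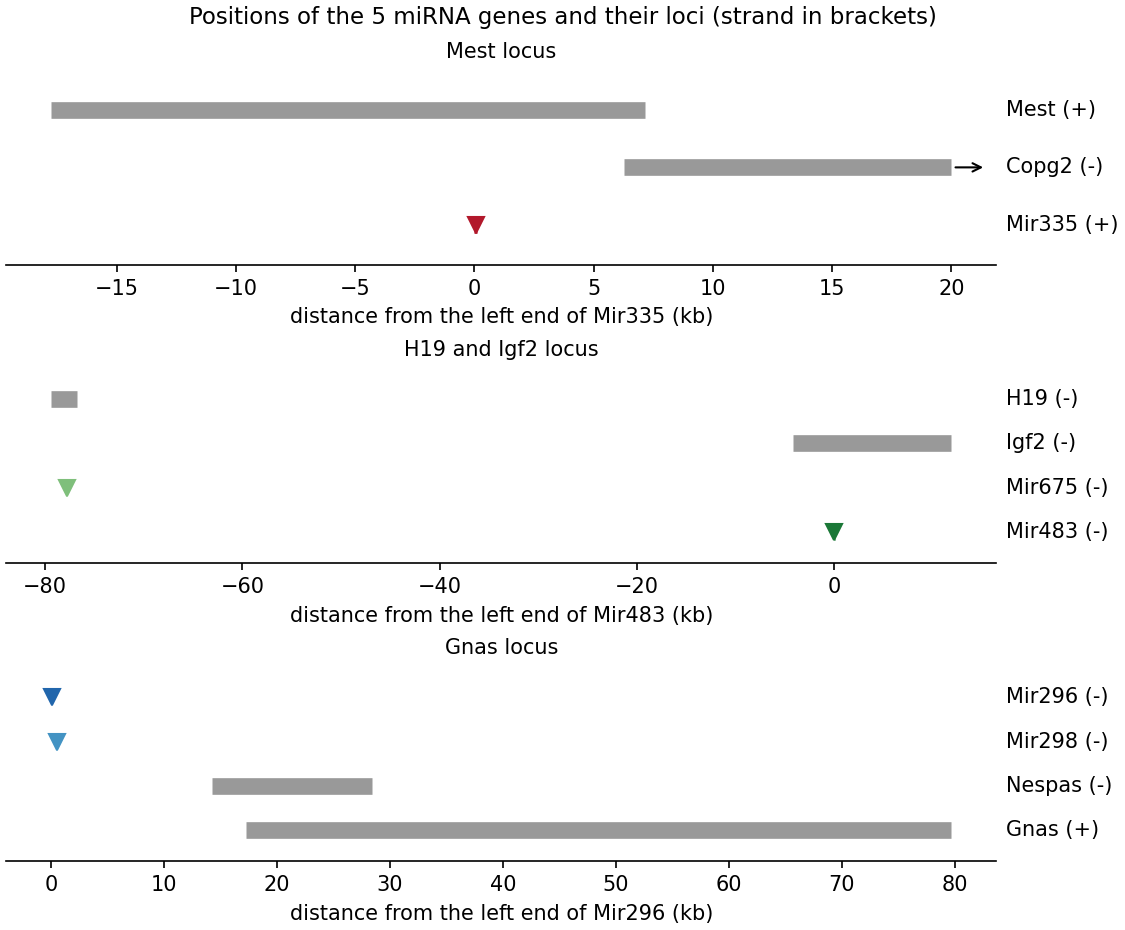
Positions of the 5 miRNA genes (triangles) and of the long genes of their loci (grey bars) as distance in kb from the left end of 1 hairpin per panel, with the strand beside each name; the arrow marks a gene that runs on. Mir335 and Mir483 lie inside Mest and Igf2, Mir675 inside H19, and the Mir296 and Mir298 pair lies beyond the end of Nespas.

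Sense reads on miRNA genes, those on the strand of the gene, numbered 5312642 in replicate 2 and 6151299 in replicate 1. Levels are CPM, these reads scaled to the library total. Of 1973 genes 20.8% were detected, that is had 10 or more reads in both libraries, and all 5 imprinted-locus genes were among them. The genes listed as neuron markers held a summed 50767 CPM in replicate 2 and 50721 CPM in replicate 1. Of these 10, 8 were detected, led by Mir149 and Mir137. Mir149 alone held 26129 CPM of that sum in replicate 2 and 24868 CPM in replicate 1. Whether Mir149 marks neurons was not tested, so the sum is not a measure of neuron content. Of the neuron markers, the 3 mir-124 genes stood at 5.36 CPM or less in either library, and Mir9-2 and Mir124a-3 were not detected. These families have near-identical copies, and how many of their reads mapped to several places was not tested. Markers of vessel and mesenchyme summed to 35311 CPM in replicate 2 and 34022 CPM in replicate 1 (7 of 8 detected), led by the endothelial Mir126a. The choroid plexus marker Mir204 had 2016 CPM in replicate 2, against 2444 CPM in replicate 1. Blood markers summed to 487 CPM in replicate 2 and 410 CPM in replicate 1 (4 of 4), and the liver marker Mir122 had 55.3 CPM in replicate 2, against 74.9 CPM in replicate 1. Skeletal muscle markers summed to 18.1 CPM in replicate 2 and 19.2 CPM in replicate 1 (1 of 4). Mir1a-1 and Mir133a-1 of the muscle list had 0 reads. How far cells other than neurons contributed to the 5 genes was not tested, and in whole tissue fewer cells of a type and less RNA per cell cannot be told apart.

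The 5 genes together held 5.69% ± 0.39 of sense miRNA reads (SD, n = 2), and their levels spanned more than 3 orders of magnitude. Mir335 held most of it, with 87.9% of their reads in replicate 2 and 86.9% in replicate 1. The Mir296 and Mir298 pair held 11.8% in replicate 2 and 12.9% in replicate 1, and the Mir483 and Mir675 pair 0.215% in replicate 2 and 0.160% in replicate 1. The order Mir335, Mir296, Mir298, Mir483, Mir675 was the same in both libraries. As a read below 30 nt can span a whole mature miRNA, levels were compared between genes as CPM without dividing by length. How well each miRNA sequence was captured in the library was not tested. Reads that mapped to several places, 36.5% of all reads in replicate 2 and 35.3% in replicate 1, are in none of these levels. Shares and ranks therefore hold among reads assigned to 1 gene, and genes with near-identical copies can be counted too low. How the 5 genes would rank with those reads included was not tested.

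Mir335, whose miRNA is known in human breast cancer cells as a suppressor of metastasis, had 252935 reads in replicate 2 and 319257 reads in replicate 1. These are 47610.0 CPM in replicate 2 (95% Wilson interval 47429 to 47791) and 51901 CPM in replicate 1 (51726 to 52076), with a mean of 49755 ± 3034 CPM (SD, n = 2). It ranked 3 of all 1973 genes in each library by reads assigned to 1 gene. Mirlet7g, of the let-7 family that accumulates in differentiating cells, was next above at 70585 ± 3993 CPM, and Mir487b of the Dlk1-Dio3 domain next below at 41396 ± 2594 CPM. The gaps to both exceeded the larger SD of each pair, and the library values did not overlap. Mir335 had no other counted miRNA gene within 100 kb. It stood 14.0-fold above Mir296 in replicate 2 (95% Clopper-Pearson interval 13.8 to 14.3) and 12.7-fold in replicate 1 (12.5 to 12.9).

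Mir296 and Mir298 followed Mir335 and stood close together. miR-296 is known to target Nanog in mouse embryonic stem cells, and miR-298 to target Bace1, the beta-secretase mRNA, in mouse. Mir296 had 18017 reads or 3391 CPM in replicate 2 (3342 to 3441) and 25161 reads or 4090.4 CPM in replicate 1 (4040.2 to 4141), with a mean of 3741 ± 494 CPM (SD, n = 2). Mir298 had 16060 reads or 3023 CPM in replicate 2 (2977 to 3070.0) and 22200 reads or 3609 CPM in replicate 1 (3562 to 3657), with a mean of 3316 ± 414 CPM (SD, n = 2). The library ranges of the neighbours overlapped, so without pairing the means did not differ beyond their spread. Both genes were lower in replicate 2, and that spread leaves out the pairing within a library. Within each library Mir298 stood below Mir296. Mir298 over Mir296 was 0.891 in replicate 2 (95% Clopper-Pearson interval 0.873 to 0.911) and 0.882 in replicate 1 (0.866 to 0.898), a log2 ratio of -0.17 ± 0.010 (SD, n = 2). Both intervals lie below 1 and they overlap each other. Gm27591, the other counted gene within 100 kb, lies on the plus strand 19051 bases from Mir296 and had 0 reads in both libraries.

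Mir483 and Mir675 share the Igf2 and H19 domain and were the lowest of the 5 genes. miR-483-3p is known for its high level in human Wilms tumours, and miR-675 limits growth of the mouse placenta and targets Igf1r. Mir483 had 596 reads or 112 CPM in replicate 2 (104 to 122) and 551 reads or 89.6 CPM in replicate 1 (82.4 to 97.4), with a mean of 101 ± 16.0 CPM (SD, n = 2). Mir675 had 21 reads or 3.95 CPM in replicate 2 (2.59 to 6.04) and 36 reads or 5.85 CPM in replicate 1 (4.23 to 8.10), with a mean of 4.90 ± 1.34 CPM (SD, n = 2). The library values of the pair did not overlap, and Mir483 was far above Mir675 in both. Mir483 over Mir675 was 28.4-fold in replicate 2 (95% Clopper-Pearson interval 18.4 to 46.2) and 15.3-fold in replicate 1 (10.9 to 22.1), so the intervals of the libraries overlapped. The few Mir675 reads limit this ratio. Genes were measured in the same 2 libraries, and an exact two-sided permutation within 2 libraries allows no p smaller than 0.5, so none was computed between genes.

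**Figure D2:**
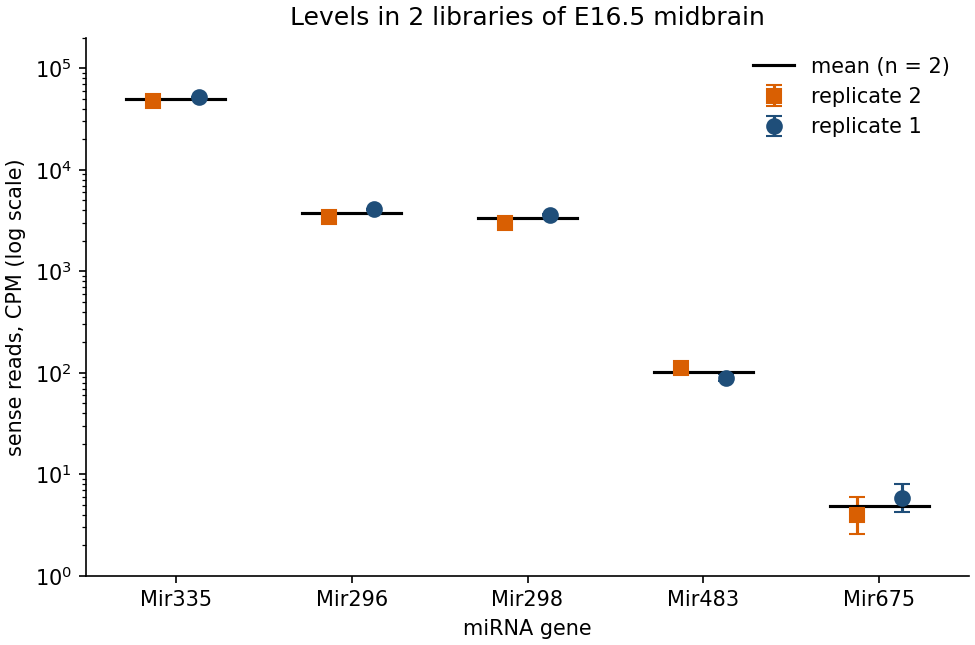
Sense-strand CPM (log scale) of the 5 genes, with a square for replicate 2, a circle for replicate 1, 95% Wilson intervals for counting error and a line at the mean (n = 2). Mir335 stands near 49755 CPM, the values of Mir296 and Mir298 overlap between 3391 and 3609 CPM, and Mir675 lies lowest, with the widest intervals.

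Among all detected genes, whose median level was 108 CPM, the 5 genes covered most of the range. Mir335 lay above 99.3% of them, Mir296 above 87.1%, Mir298 above 85.9%, Mir483 above 49.1% and Mir675 above 16.5%. Their median was 3316 CPM. The genes closest in mean level were Mir324 and Mir21a for Mir296, at 3768 and 3660 CPM, and Mir434 and Mir7b for Mir298, at 3535 and 3240.0 CPM. For Mir483 they were Mir673 and Mir145a, at 102 and 100.3 CPM. For Mir675 they were Mir6928 and Mir1947, tied at 4.94 CPM, and Mir297a-2 at 4.898 CPM. None of these genes differed from its neighbour beyond the larger SD of the 2 genes. Likeness here is the mean CPM over 2 libraries and nothing else.

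**Figure D3:**
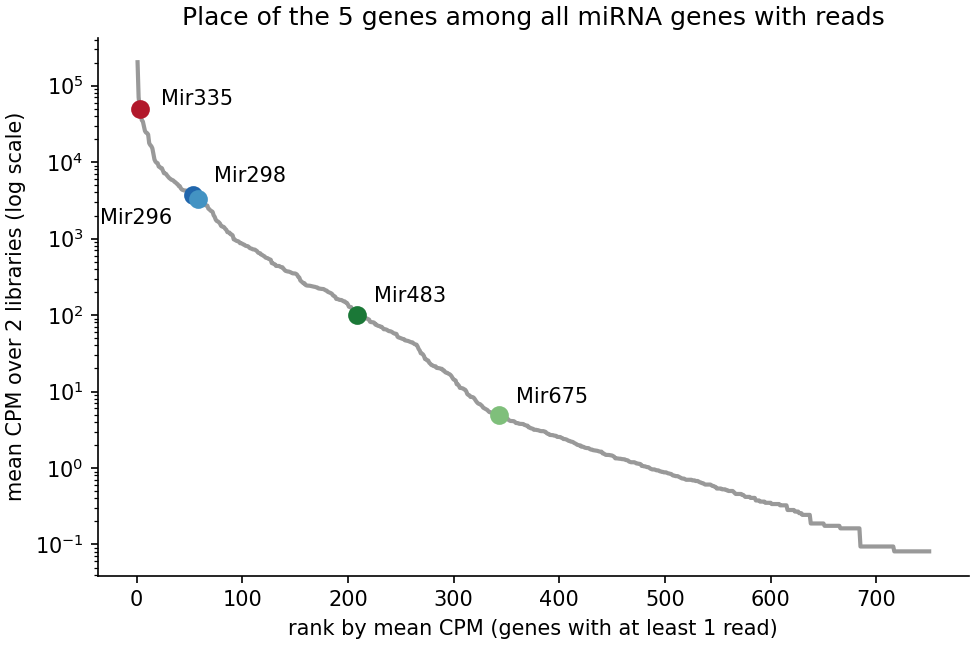
Mean CPM (log scale) against rank for the miRNA genes with at least 1 read, as a line, with the 5 genes as points. Mir335 stands at rank 3, Mir296 and Mir298 at 53 and 58, Mir483 at 209 and Mir675 at 343.

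Other imprinted miRNA genes were set beside the 5, taken by position. Of 59 counted genes between Dlk1 and Dio3, 46 were detected, and their median over all 59 was 222 CPM, against 0 CPM over all 1973 genes. That domain held 11.4% ± 0.40 of miRNA reads (SD, n = 2), from many genes, led by Mir487b, Mir127 (10101 CPM), Mir369 (9792 CPM) and Mir382 (8331 CPM). Mir335 alone stood above all 59, at 1.20 times Mir487b, while 7 of them stood above Mir296, 8 above Mir298, 36 above Mir483 and 45 above Mir675. Of 107 counted genes inside Sfmbt2, whose intron holds a rodent miRNA cluster, 10 were detected, and the cluster held 0.450% ± 0.0030 of reads. Its highest genes were Mir467e (1466 CPM), Mir467d (1337 CPM), Mir467c (928 CPM) and Mir669o (336 CPM), all below Mir296 and Mir298. Many genes inside Sfmbt2 have near-identical copies, so their counts are uncertain. These are counts and medians of sets chosen by position, with no test of the sets.

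**Figure D4:**
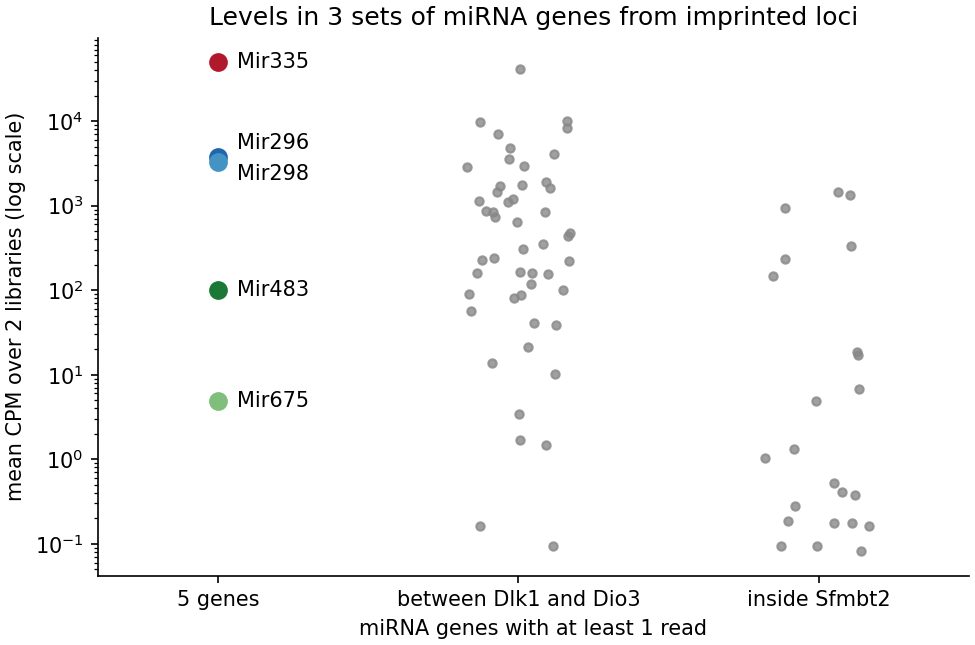
Mean CPM (log scale) of the 5 genes, of genes between Dlk1 and Dio3 and of genes inside Sfmbt2, 1 point per gene with at least 1 read. Mir335 stands above every point of the other sets, and Mir675 lies among the lower points of the Dlk1-Dio3 genes.

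The libraries differed at 4 of the 5 genes by more than counting error, in a test that covers counting error only. Each gene's reads were set against the library sizes by an exact binomial test (two-sided), and p-values were adjusted after Benjamini and Hochberg over the 411 detected genes. Of these, 47.2% were called, 29.0% lower and 18.2% higher in replicate 2, so a call was common among all genes. The test calls smaller differences at higher read counts. Mir335, Mir296 and Mir298 each lay above 85.9% or more of the detected genes in level, so 47.2% is not the share at their depth. Mir296 fell by 0.27 on the log2 scale in replicate 2 relative to replicate 1 (95% interval -0.30 to -0.24, adjusted p = 1.27e-81 by the exact binomial test). Mir298 fell by 0.26 (-0.29 to -0.23, adjusted p = 6.16e-65 by the same exact test), and its interval overlapped that of Mir296. Mir335 fell by 0.12 (-0.13 to -0.12, adjusted p = 1.41e-229), and its log2 ratio was -0.08 under both TMM and RLE scaling, outside that interval, which covers counting error only. Mir483 went the other way and was higher by 0.32 (0.16 to 0.49, adjusted p = 0.000462 by the exact binomial test). Mir675 had a log2 ratio of -0.57 (-1.42 to 0.25) and did not pass (adjusted p = 0.309). Their median log2 ratio was -0.26, against -0.06 over all detected genes, of which 60.3% had ratios below 0.

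When a spread between pools was assumed, with the BCV (biological coefficient of variation) set to 0.2 in the exact test of edgeR, 0 of the 5 genes passed, each with an adjusted p of 1, and 0 had an unadjusted p under 0.05. That test called 1.46% of the detected genes. The BCV was chosen and not estimated from these data. With 1 library on each side, that BCV alone keeps ratios as small as these from passing, so no conclusion on the 5 genes is drawn from it. Sizes of ratio were set beside those of the 20 detected genes nearest in level, 10 above and 10 below, except for Mir335 with 2 above and 18 below. The median size among them was 0.11 for Mir335, 0.12 for Mir296, 0.13 for Mir298, 0.11 for Mir483 and 0.32 for Mir675. Of those 20, 9 had a larger ratio in size than Mir335, or 14 under TMM scaling, an alternative chosen after seeing the data. For Mir296 the count was 2, for Mir298 3, for Mir483 4 and for Mir675 5. Under TMM scaling these counts were 2, 3, 3 and 6. Mir296 is among the 3 genes counted for Mir298, and the nearest genes of this pair overlap, so their counts are not separate comparisons. Mir335 ranked 258 of 411 by size of ratio, Mir298 155, Mir296 139, Mir483 109 and Mir675 47.

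**Figure D5:**
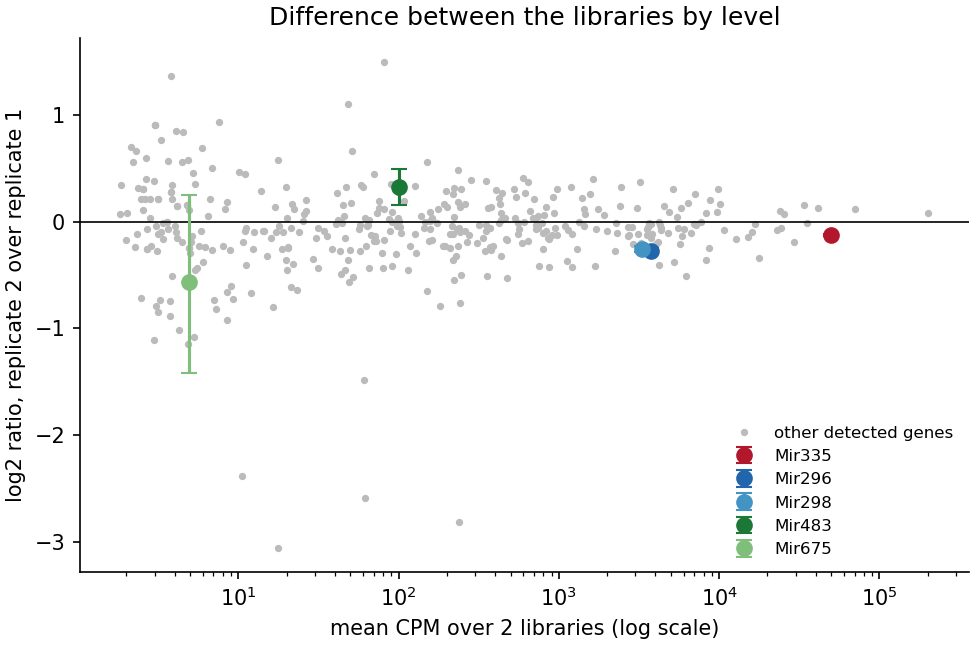
Log2 ratio of replicate 2 over replicate 1 against mean CPM (log scale) for the 411 detected genes, with the 5 genes in colour and 95% Clopper-Pearson intervals for counting error. Mir296 and Mir298 lie almost on each other at -0.27 and -0.26, Mir483 lies above 0, and the interval of Mir675 spans 0.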

How the data were processed

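MicroRNA-seq libraries of 2 midbrain pools were compared as 1 group. The authors deposited raw counts of reads per miRNA gene, on mm10 with GENCODE M4, as the deposited file descriptions state. The aligner and counting program are not given in the sources used here. The layout, with either-strand, sense and opposite columns and rows for reads in several places, is that of counts from reads aligned to 1 place. Reads not assigned to 1 gene were kept out of the totals. Of all reads, 36.5% in replicate 2 and 35.3% in replicate 1 mapped to several places, and which genes these came from is not given. A further 15.2% in replicate 2 and 15.6% in replicate 1 were unmapped. In the sense count, 4.14% in replicate 2 and 3.99% in replicate 1 lay in no gene. Identifiers without version were matched to GENCODE M21 (same assembly), where 1894 of 1973 matched.

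CPM was computed over summed sense counts. The binomial test compared each gene's reads with the library sizes over genes with 10 or more reads in both libraries, at an adjusted p of 0.05. Intervals are Wilson for levels and Clopper-Pearson for ratios. They cover counting error only and treat reads as independent draws. Reads are not independent molecules, so the intervals can be too narrow. The binomial and edgeR tests were also run on simulated counts with planted changes and no spread between pools. That run cannot show how the tests behave where pools differ. Tools were Python 3.11.15, scipy 1.17.1, R 4.3.3 with edgeR 4.0.16, and ViennaRNA 2.7.2 for folding. Named genes were the 5 genes, the next gene above and below each in mean CPM, counted genes within 100 kb, genes sharing a seed, the 4 highest of each other domain, and the markers. Mir1947, tied with Mir6928, was added. The genes and lists were chosen with earlier results of these data known. Alternatives were TMM and RLE scaling, other read minimums, either-strand counts, all reads as denominator, a fixed BCV and each library alone.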

Additional observations from a re-analysis of the deposited data

Results flagged for a closer look

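Reads on the strand opposite Mir335 were used in no comparison and numbered 7 in replicate 2 and 2 in replicate 1. The count in replicate 2 lies above the 3 reads that a count of 0 allows, beside 252935 sense reads in that library. Over all genes, replicate 2 had 5448099 reads on either strand, of which 5312642 were sense. The share on the opposite strand was thus lower at Mir335 than over all genes. The other 4 genes had 0 reads on the opposite strand in both libraries.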

How the results depend on the processing

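Scaled to all reads of the library in place of sense miRNA reads, mean levels were 22219 for Mir335, 1671 for Mir296, 1481.5 for Mir298, 45.0 for Mir483 and 2.19 for Mir675. That denominator also holds reads mapped to several places, unmapped reads, reads in no gene and opposite-strand reads. At a fixed BCV of 0.2 the log2 ratios of Mir335 (-0.12), Mir296 (-0.27), Mir298 (-0.26) and Mir483 (0.32) no longer passed. In all, 6 genes were called there, against 194 by the binomial test. The fixed BCV assumes a spread between pools under which ratios of this size cannot pass. Under TMM scaling the binomial test called 182 genes. TMM and RLE scaling, either-strand counts and other read minimums changed no direction and no call at the 5 genes, but TMM and RLE scaling moved the log2 ratio of Mir335 to -0.08. Mir675, at 21 reads in replicate 2 and 36 in replicate 1, had no value with a minimum of 50 reads, which left 4 genes detected, and its depth limits every ratio that uses it. No paired comparison of conditions was possible because there was 1 group.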
